A study of Rattus norvegicus with 6 samples.

Results

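Genes for chaperones and folding enzymes of the endoplasmic reticulum were followed in the rat aorta during its first day in collagen gel. The list held 10 genes, namely Hspa5, Hsp90b1, Calr, Canx, Pdia3, Pdia4, Pdia6, Xbp1, Dnajb9 and Herpud1. Each was measured by the brightest row of the expression table whose array annotation names that gene alone, and all 10 of 10 were found among the 14324 genes measured. Day 1 samples were aortic rings embedded in collagen gel and cultured in serum-free EBM medium, and day 0 samples were freshly cut rings. Both groups came from male Fisher 344 rats aged 1 to 2 months, with 3 biological replicates per group and 4 to 6 rings or cultures combined in each. The labels do not say whether pools shared animals, and a p-value here reflects no more than how far these pools varied. RNA of the whole ring was hybridised to 1 whole-transcript array per pool.

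The endoplasmic reticulum is where secreted and membrane proteins are folded, joined by disulfide bonds and fitted with sugar chains. Its lumenal chaperones hold unfolded chains, and when unfolded protein accumulates, sensors in the membrane start the unfolded protein response, in which the transcription factors ATF6, XBP1 and ATF4 raise chaperone and degradation genes. Vascular smooth muscle cells and fibroblasts of the aorta secrete collagen and elastin, which pass through this compartment.

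Transcripts of 8 of the 10 genes were higher after 1 day of culture, by 1.24-fold to 1.83-fold, and 2 were not changed beyond the threshold. The rise took in the lumenal chaperones Hspa5 and Hsp90b1, the cochaperone Dnajb9, the lectin chaperones Calr and Canx, and the disulfide isomerases Pdia3, Pdia4 and Pdia6. The genes that did not pass were the degradation factor Herpud1 and the transcription factor Xbp1. After quantile normalization of the arrays 6 of the 10 rose, without Canx and Pdia3. In the limma fit to all 14324 genes, 48.3% changed at a Benjamini-Hochberg adjusted p of 0.05. Genes that rose made up 27.6% of the total and genes that fell 20.7%. Among the 3221 genes at least as bright as Dnajb9, the dimmest of the list, 45.6% rose and 24.6% fell, so the list's 8 of 10 is read against a high background. The median log2 change of the 10 genes was 0.41, against 0.13 in those 3221 genes and -0.01 in all genes. After quantile normalization the medians were 0.21 for the 10 genes and 0.02 for the 3221 genes, of which 35.8% then rose and 31.6% fell. No gene of the list reached 2-fold, while 4.13% of all genes rose at least 2-fold with an adjusted p under 0.05.

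The change against mean level shows where the list lay among all genes.

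**Figure D1:**
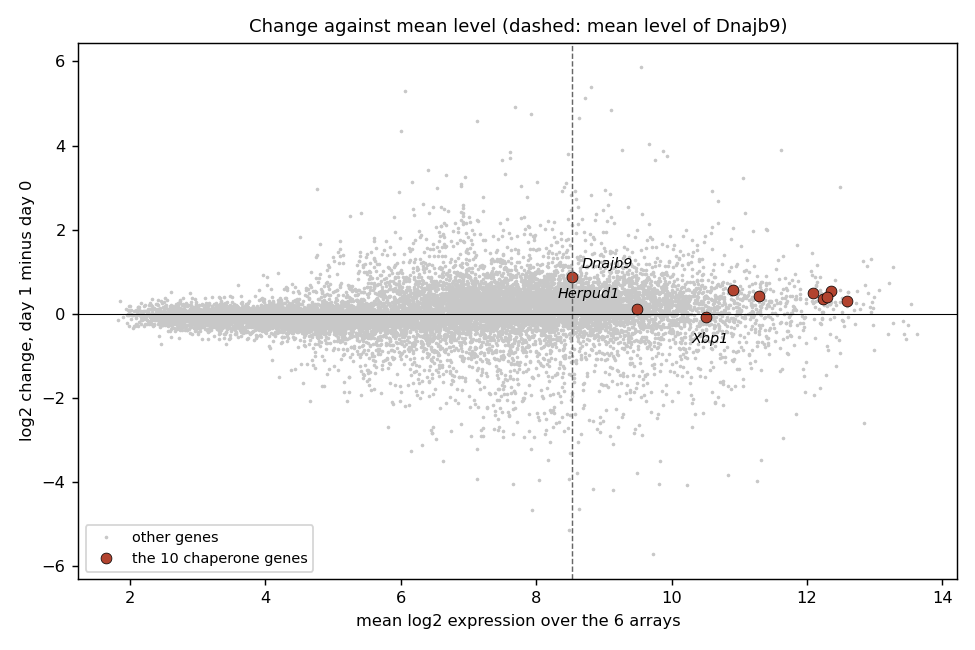
Each point is a gene, with its mean log2 expression over the 6 arrays on the horizontal axis and its log2 change (day 1 minus day 0) on the vertical axis; the 10 chaperone genes are the large points. All 10 lay at or to the right of the mean level of Dnajb9 (dashed line), and 9 of them lay above a change of 0.

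Chaperone promoters are known for the endoplasmic reticulum stress element (ERSE), CCAAT and CCACG with 9 bases of any kind between them, which ATF6 and XBP1 bind together with NF-Y, and for a related element, ERSE-II, ATTGG and CCACG with 1 base of any kind between them. RefSeq promoter windows on build GRCr8, from 250 bases before to 50 after an annotated start, were matched for 8 of the 10 genes; Pdia3 and Pdia6 were not matched. An exact ERSE on either strand was in 5 of the 8 windows (Hspa5, Hsp90b1, Calr, Canx and Xbp1), with 2 copies in Hsp90b1. Among all 33469 windows of the table it was in 22, or 0.0657%. The element was known from chaperone promoters beforehand, so this contrast is no independent evidence of enrichment. ERSE-II was in the window of Herpud1 and in 0.0508% of all windows. The stretches that hold these elements are shown because 6 of the 8 genes with a window hold one, 5′ to 3′ on the strand of the gene, with the fixed bases of ERSE or the whole of ERSE-II in capitals:
Hspa5 (chr3:38452953-38453011, plus strand): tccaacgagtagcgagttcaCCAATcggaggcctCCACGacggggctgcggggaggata
Hsp90b1 (chr7:23012327-23012489, minus strand): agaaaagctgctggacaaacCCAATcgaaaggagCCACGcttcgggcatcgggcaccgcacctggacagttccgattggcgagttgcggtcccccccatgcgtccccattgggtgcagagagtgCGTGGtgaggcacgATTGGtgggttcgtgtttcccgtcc
Calr (chr19:40213117-40213173, plus strand): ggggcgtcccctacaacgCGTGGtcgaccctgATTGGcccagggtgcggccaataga
Canx (chr10:35158049-35158107, minus strand): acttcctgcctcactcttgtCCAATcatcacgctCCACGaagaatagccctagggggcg
Xbp1 (chr14:84604538-84604596, plus strand): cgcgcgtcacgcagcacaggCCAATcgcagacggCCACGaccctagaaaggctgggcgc
Herpud1 (chr19:10614801-10614851, minus strand): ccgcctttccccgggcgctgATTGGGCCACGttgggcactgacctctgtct
In Calr, and in the second copy of Hsp90b1, the element runs on the opposite strand and therefore reads CGTGG first. The annotated spans of Canx and Herpud1 extend upstream of the starts used here, so their positions refer to 1 of several starts.

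Positions of the exact elements differed between genes. Counted from the annotated start, where the base before the start is -1, the element spanned -43 to -25 in Hspa5 and -65 to -47 in Xbp1. It spanned -176 to -158 and -72 to -54 in Hsp90b1, -232 to -214 in Calr and -230 to -212 in Canx. ERSE-II of Herpud1 lay at -124 to -114. Allowing 1 of the 10 fixed bases of ERSE to differ, a search added after the exact one, brought the windows with an element to 7 of 8, against 1.41% of all windows. It added an element to Pdia4 and Herpud1 and further copies to Hsp90b1, and none to Dnajb9. The core CCACG alone was in all 8 windows, but also in 31.6% of all windows, and part of these matches lie inside the longer elements. The UPR element TGACGTGG was in 0 of the 8 windows and in 0.595% of all. The amino acid response element TGATGNAA was in Herpud1 alone of the 8 and in 3.98% of all. These matches describe the letters of the windows and not binding by any factor.

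**Figure D2:**
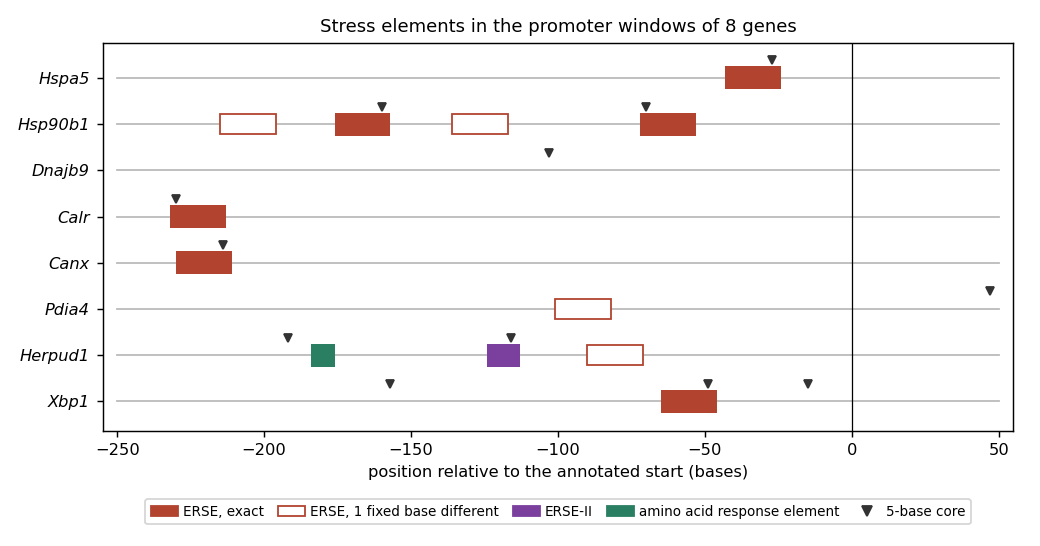
Each line is the promoter window of a gene, with position relative to the annotated start in bases on the horizontal axis; filled bars are exact elements, open bars are ERSE with 1 fixed base different, and triangles mark the core CCACG. Exact ERSE bars stand in 5 of the 8 windows, including that of Xbp1, which did not rise, and in none for Dnajb9, whose rise was the largest of the list.

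The Hsp70 and Hsp90 chaperones of the lumen and the J-domain cochaperone Dnajb9 rose. Hspa5 encodes BiP, the Hsp70 of the lumen, which binds unfolded chains and holds the stress sensors inactive. Its log2 levels were 12.50, 12.44 and 12.52 on day 1, against 12.11, 12.11 and 12.06 on day 0. The lowest day 1 array stood above the highest day 0 array, and the log2 change was 0.39 ± 0.06 (SE, n = 3 per group; limma adjusted p = 0.000773), or 1.31-fold. Hsp90b1 encodes GRP94, the lumenal Hsp90. Its levels were 12.63, 12.62 and 12.62 on day 1, against 12.09, 12.08 and 12.07 on day 0. Arrays of a group lay closer together here than for any other gene of the list on day 1 (SD 0.0058, n = 3) and on day 0 (SD 0.0115, n = 3). The change was 0.55 ± 0.05 (SE; limma adjusted p = 7.94e-05), or 1.46-fold.

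Dnajb9 encodes ERdj4, a J-domain cochaperone that hands clients and the sensor IRE1 to BiP. Its levels were 8.93, 9.03 and 8.96 on day 1, against 8.17, 8.01 and 8.12 on day 0. The groups stood well apart, and the change of 0.87 ± 0.07 (SE; limma adjusted p = 1.83e-05), or 1.83-fold, was the largest of the 10. It exceeded the change of the next gene, Pdia4, by 0.30 ± 0.05 (SE of the difference, computed within arrays). In absolute size it lay at the 89.6th percentile of all genes.

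The lectin chaperones, which hold newly glycosylated proteins in a folding cycle, were both higher. Calr, the soluble calreticulin, had levels of 12.28, 12.33 and 12.38 on day 1, against 11.88, 11.82 and 11.84 on day 0. All day 1 arrays were higher, by 0.48 ± 0.06 (SE; limma adjusted p = 0.000276), or 1.40-fold. Canx, the membrane-bound calnexin, had levels of 12.40, 12.44 and 12.40 on day 1, against 12.08, 12.08 and 12.01 on day 0. Its groups did not overlap either, with a change of 0.36 ± 0.06 (SE; limma adjusted p = 0.00126), or 1.28-fold.

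Each of the disulfide isomerases of the list was higher. Pdia3, or ERp57, works with calreticulin and calnexin. It had levels of 12.69, 12.74 and 12.80 on day 1, against 12.43, 12.42 and 12.45 on day 0, and the change of 0.31 ± 0.06 (SE; limma adjusted p = 0.00297), or 1.24-fold, was the smallest that passed. Pdia4, or ERp72, had levels of 11.18, 11.18 and 11.23 on day 1, against 10.68, 10.60 and 10.58 on day 0. Its change was 0.57 ± 0.06 (SE; limma adjusted p = 0.000106), or 1.49-fold, the second largest of the list. Pdia6, or P5, which also binds BiP clients, had levels of 11.51, 11.49 and 11.49 on day 1, against 11.08, 11.10 and 11.04 on day 0. All 3 day 1 arrays were higher, by 0.42 ± 0.06 (SE; limma adjusted p = 0.000412), or 1.34-fold.

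Herpud1 and Xbp1 did not pass the threshold. Herpud1 encodes a membrane protein of the degradation complex. Its levels were 9.55, 9.53 and 9.53 on day 1, against 9.48, 9.45 and 9.36 on day 0, a change of 0.11 with a 95% interval of -0.03 to 0.25 (limma adjusted p = 0.178). Xbp1 encodes the transcription factor that becomes active once IRE1 has removed a short intron from its mRNA. Its levels were 10.44, 10.49 and 10.48 on day 1, against 10.59, 10.52 and 10.55 on day 0. The change was -0.09 with a 95% interval of -0.22 to 0.04 (limma adjusted p = 0.249). Xbp1 was measured by 1 row, so its spliced and unspliced forms could not be separated. The groups of both genes did not overlap, which also held for the other 8 genes of the list and for 56.9% of all genes.

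**Figure D3:**
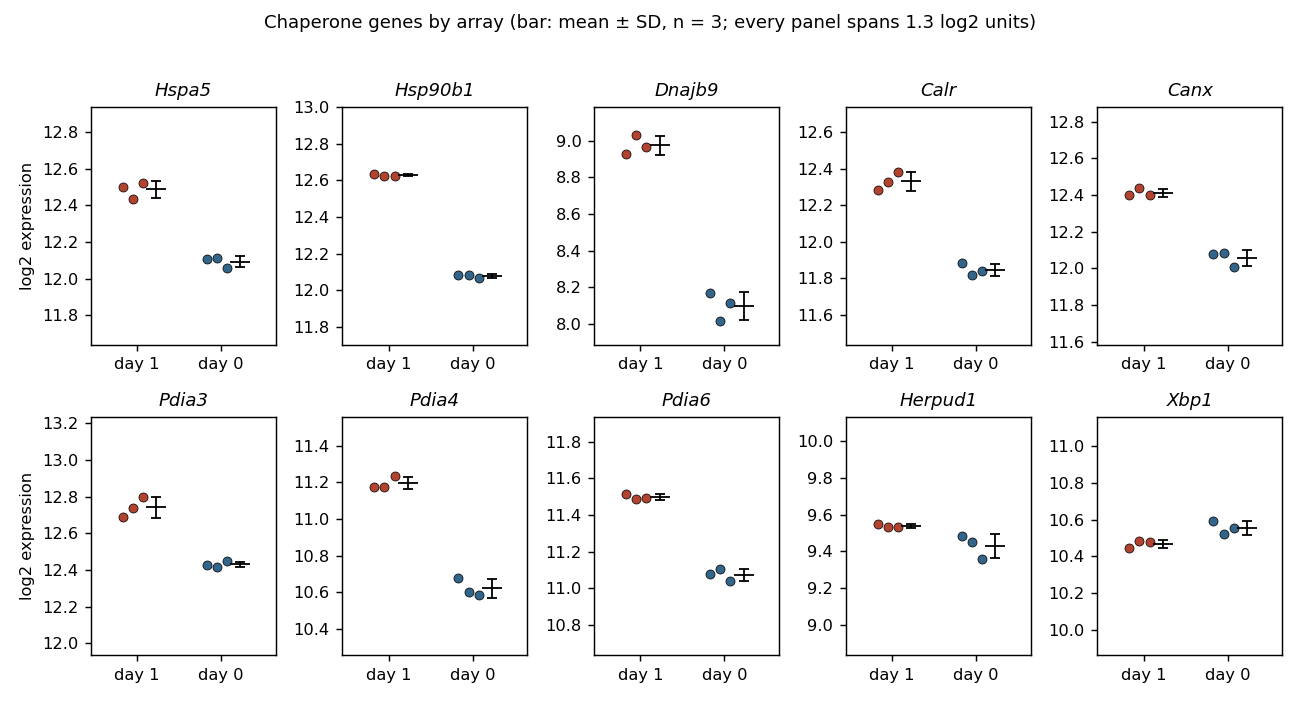
Log2 expression of each gene is plotted for the 3 day 1 arrays (left, red) and the 3 day 0 arrays (right, blue), with the mean ± SD of each group beside the points. In 8 panels the day 1 points stand clear above those of day 0, while the steps in Herpud1 (0.11) and Xbp1 (-0.09) are small.

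Spread between arrays was small throughout, with SDs of 0.0058 to 0.0556 on day 1 and 0.0115 to 0.0772 on day 0. From Pdia4 to Pdia3 the changes formed a graded order in which neighbouring genes differed by 0.02 to 0.07, at most 1.8 times the SE of the difference. Larger steps separated Pdia3 from Herpud1 (0.20 ± 0.06) and Herpud1 from Xbp1 (0.20 ± 0.04).

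The size of these changes depended on the scaling of the arrays. Values were spread more widely on day 1, and the part of that spread in the shift was not tested. The upper quartile lay between 7.93 and 7.95 in day 1 arrays, against 7.83 and 7.87 in day 0 arrays. After quantile normalization, which makes the distributions equal, 6 of the 10 genes rose and 1 fell. Dnajb9 (0.77), Pdia4 (0.45), Hsp90b1 (0.34), Calr (0.26), Pdia6 (0.25) and Hspa5 (0.17; limma adjusted p = 0.0483) stayed past the threshold. Canx (0.13; limma adjusted p = 0.0930) and Pdia3 (0.12; limma adjusted p = 0.107) did not, and Xbp1 passed it downward (-0.16; limma adjusted p = 0.0426). Changes of Hspa5, Canx, Pdia3, Calr, Pdia6 and Hsp90b1 were 1.60 to 2.79 times smaller than on the deposited values.

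**Figure D4:**
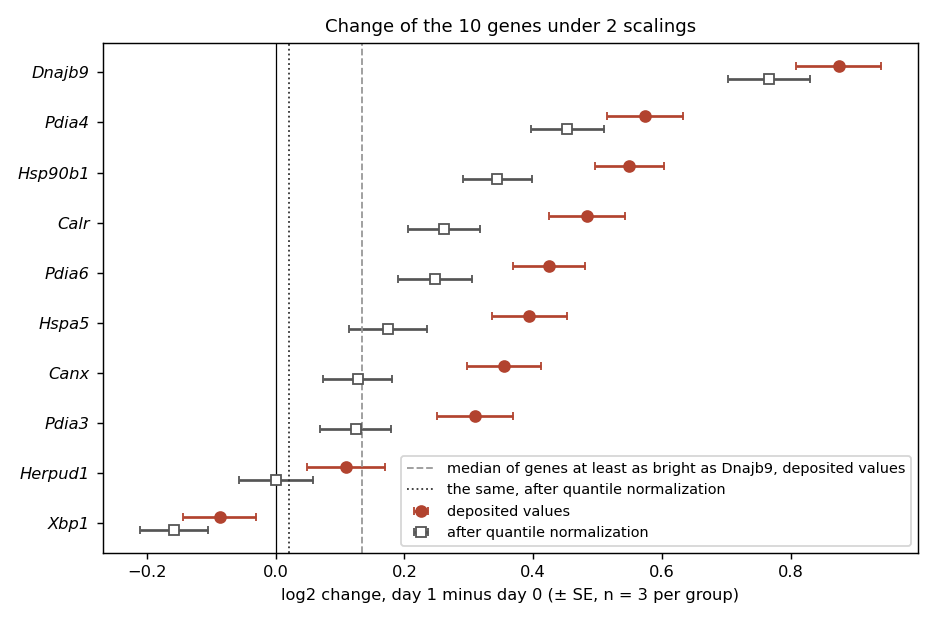
The log2 change of each gene (day 1 minus day 0, ± SE, n = 3 per group) is shown on the deposited values (circles) and after quantile normalization (squares). All squares lie to the left of their circles; for the 3221 genes at least as bright as Dnajb9 the median is 0.13 on the deposited values (dashed line) and 0.02 after quantile normalization (dotted line).

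Other genes of the pathway were followed through 12 lists. Their counts are to be read against the shares given above for all genes (27.6% rising, 20.7% falling) and for the bright genes (45.6% and 24.6%). Of 14 partners of BiP and other lumenal chaperones that were measured, 9 rose and 0 fell, and their median change was 0.32. Sdf2l1, a lumenal partner of BiP and its J-proteins, had levels of 8.67, 8.40 and 8.44 on day 1, against 6.64, 6.37 and 6.55 on day 0. Its change of 1.98 ± 0.10 (SE; limma adjusted p = 2.02e-06) was larger than that of any gene among the 10. Its homologue Sdf2 rose by 0.72 ± 0.06, Hyou1, a nucleotide exchange factor of BiP, by 0.61 ± 0.06, and Creld2 by 0.52 ± 0.06. The J-protein gene Dnajc3 rose by 0.31 ± 0.06 and Dnajb11 by 0.27 ± 0.06, whereas Sil1, another exchange factor of BiP, was at 0.15 ± 0.09 (limma adjusted p = 0.204). The J-protein genes Dnajc10 and Dnajc25 did not pass the threshold either (limma adjusted p = 0.9998 and 0.894).

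Of 15 other disulfide isomerases and oxidases, 8 rose and 3 fell, with a median change of 0.28, and 5 rose and 5 fell after quantile normalization. The oxidase gene Ero1a, which recharges disulfide isomerases, rose by 0.78 ± 0.06, and the membrane-bound isomerase gene Tmx1 by 0.50 ± 0.06. Tmx4 fell by 0.84 ± 0.07 and Pdia5 fell by 0.51 ± 0.06. P4hb, the protein disulfide isomerase that is also a subunit of prolyl hydroxylase, was at 0.01 ± 0.06 (limma adjusted p = 0.902).

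A further list joined genes that process N-glycans to genes of lectins in transport and the lectin partner Mcfd2. Of its 8 genes 7 rose and 1 fell, with a median change of 0.38, and 4 rose after quantile normalization. Uggt1, which returns misfolded glycoproteins to the lectins, rose by 0.78 ± 0.07, the glucosidase gene Mogs by 0.71 ± 0.07 and the glucosidase II subunit gene Prkcsh by 0.51 ± 0.07. Mcfd2 rose by 0.97 ± 0.06, while Lman1, the cargo receptor with which MCFD2 forms a complex, fell by 0.32 ± 0.06. The oligosaccharyltransferase attaches the glycan, and of its 10 measured genes 5 rose and 1 fell (median change 0.23), or 2 and 2 after quantile normalization. Tusc3 had the largest change, at 0.74 ± 0.06, and Dad1 fell by 0.21 ± 0.07.

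Among 19 genes of endoplasmic reticulum-associated degradation 8 rose and 0 fell (median change 0.15), or 5 and 5 after quantile normalization. That share and median lie near those of the bright genes, 45.6% and 0.13. The derlin gene Derl3 rose by 1.02 ± 0.12, Aup1 by 0.75 ± 0.06, Edem2 by 0.70 ± 0.08 and the segregase gene Vcp by 0.53 ± 0.06. Sel1l, the adaptor of the ubiquitin ligase HRD1, rose by 0.40 ± 0.06, while Syvn1, which encodes HRD1 itself, was at -0.10 ± 0.07 (limma adjusted p = 0.254). Sel1l was also the gene whose 6 array values, centred on their mean, lay closest to those of Hspa5 (Euclidean distance 0.029). Mta2 (0.0428), Exoc1 (0.0443), Nras (0.0456) and Max (0.0458) came next. With 6 arrays in 2 groups this likeness reflects mostly the size of the step between the groups.

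Genes for the sensors, their proteases and related factors went both ways, with 4 rising and 5 falling of 12 (median -0.10). Atf6 had levels of 9.84, 9.93 and 9.996 on day 1, against 9.20, 8.98 and 9.04 on day 0, a rise of 0.85 ± 0.08 (SE; limma adjusted p = 5.95e-05). Its homologue Atf6b rose by 0.39 ± 0.06. Eif2ak3, which encodes the sensor PERK, fell by 0.35 ± 0.07. Creb3l1 and Creb3l2, relatives of ATF6 known for their role in secretory cells that make matrix, fell by 1.42 ± 0.10 and 1.27 ± 0.07. Ern1, which encodes IRE1 alpha, was not analysed here.

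Of 12 genes listed for the PERK arm 5 rose and 2 fell (median change 0.10), against 27.6% and 20.7% of all genes. PERK activity was not measured, so these changes are not assigned to it. The amino acid synthesis gene Asns rose by 2.31 ± 0.09 and the pseudokinase gene Trib3 by 2.08 ± 0.17. Ddit3, which encodes the stress factor CHOP, had levels of 8.55, 8.59 and 8.45 on day 1, against 6.76, 6.71 and 6.75 on day 0, a rise of 1.79 ± 0.06 (SE; limma adjusted p = 3.41e-07). Atf4 itself rose by 0.29 ± 0.06. Atf3 fell by 2.54 ± 0.06, and the phosphatase subunit gene Ppp1r15a was at -0.12 ± 0.08 (limma adjusted p = 0.229).

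Translocon and signal peptidase genes, which bring chains into the lumen, numbered 16, of which 7 rose and 0 fell (median change 0.08). After quantile normalization 4 rose and 2 fell, and the median turned to -0.06. The signal peptidase gene Sec11c rose by 1.20 ± 0.06 and the translocon gene Sec61a2 by 0.99 ± 0.07, while Sec61a1 was at 0.04 ± 0.06 (limma adjusted p = 0.610).

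Most genes for collagen chaperones and modifying enzymes moved the other way from the 8 chaperone genes, with 13 of 18 falling and 3 rising (median change -0.39). Serpinh1, the collagen chaperone HSP47, had levels of 11.89, 11.86 and 11.91 on day 1, against 12.75, 12.74 and 12.74 on day 0. It fell by 0.86 ± 0.05 (SE; limma adjusted p = 7.33e-06). The prolyl 3-hydroxylase gene P3h2 fell by 2.76 ± 0.07 and the prolyl isomerase gene Fkbp14 by 1.36 ± 0.09, and P4ha3 rose by 0.69 ± 0.07.

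The export list held genes of the COPII coat, which carries folded cargo out, of other export factors and of the KDEL receptors. Of its 16 measured genes 9 fell and 0 rose (median change -0.27). KDEL receptors return lumenal proteins that carry the KDEL signal, such as BiP and GRP94, from the Golgi. Kdelr3 had levels of 7.89, 7.88 and 7.89 on day 1, against 9.54, 9.54 and 9.50 on day 0, and fell by 1.64 ± 0.05 (SE; limma adjusted p = 2.93e-07). Kdelr2 fell by 0.54 ± 0.06 and Kdelr1 by 0.19 ± 0.06 (limma adjusted p = 0.0287). Among coat genes, Sec24d fell by 0.85 ± 0.06, Sec13 by 0.83 ± 0.06 and Sec23a by 0.80 ± 0.06.

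Of 18 calcium genes, mostly but not all of the endoplasmic and sarcoplasmic reticulum, 10 fell and 4 rose (median change -0.29). The calcium store protein gene Casq2 fell by 5.15 ± 0.12, whereas Calr, which also stores calcium, rose as given above. Of the calcium pump genes, Atp2a3 fell by 2.02 ± 0.10 and Atp2a2 by 0.74 ± 0.06. The calcium release channel gene Itpr3 rose by 1.36 ± 0.08, while Itpr1 fell by 1.06 ± 0.06 and Ryr2 fell by 1.91 ± 0.10.

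Among 20 relatives from the same chaperone families, mostly cytosolic or mitochondrial, 10 rose and 6 fell (median change 0.15), or 7 and 8 after quantile normalization. The 10 include Hspa13 (0.33 ± 0.07), an Hsp70 that is itself associated with the endoplasmic reticulum. Hspa9, the mitochondrial Hsp70, rose by 1.02 ± 0.06 and Trap1, the mitochondrial Hsp90, by 0.63 ± 0.06. The cytosolic Hsp70 gene Hspa8 fell by 0.28 ± 0.05 and the cytosolic Hsp90 gene Hsp90aa1 by 0.34 ± 0.06. Hsp90ab1 was higher by 0.19 ± 0.06 (limma adjusted p = 0.0313), a direction that turned after quantile normalization. The J-protein gene Dnajb4 fell by 2.39 ± 0.06.

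**Figure D5:**
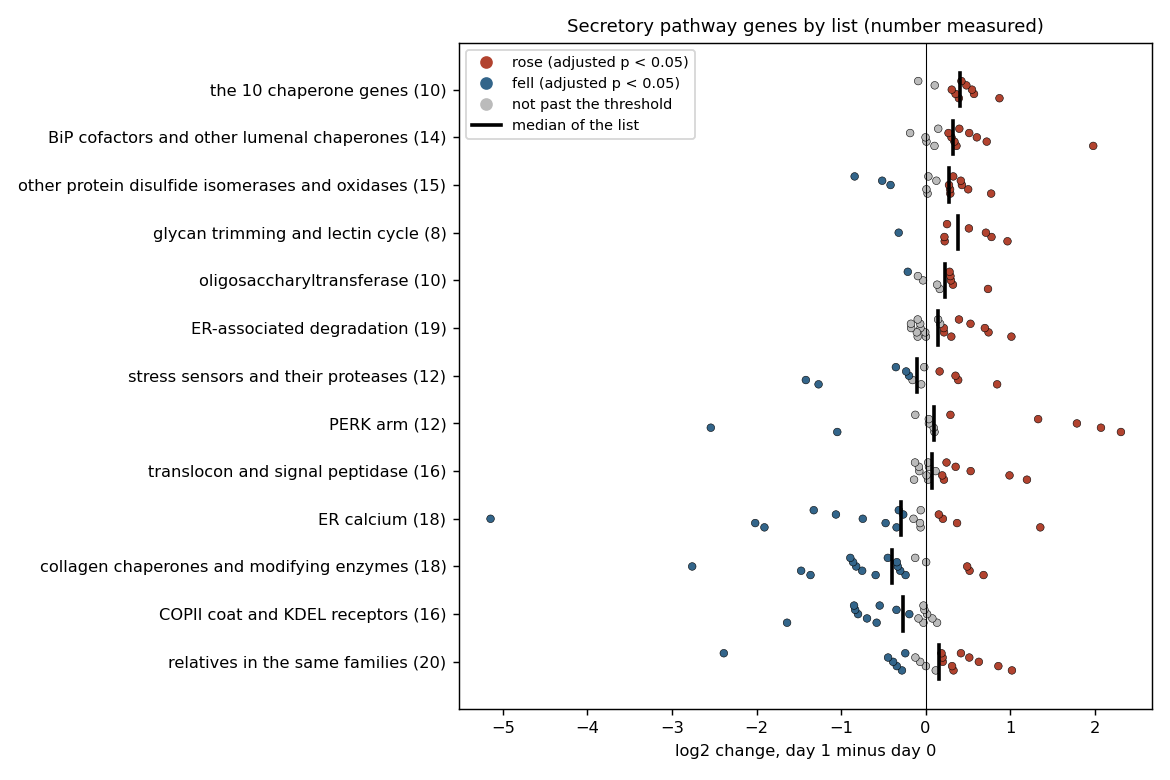
Each point is the log2 change (day 1 minus day 0) of a measured gene, by list, with the median of the list as a vertical bar; red points rose and blue points fell at an adjusted p of 0.05. The chaperone, cofactor and glycan lists have medians of 0.41, 0.32 and 0.38, while those of the collagen, export and calcium lists are -0.39, -0.27 and -0.29.

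Genes outside the list whose promoter window holds an exact ERSE were followed as well. Of 16 such symbols 9 were measured, and 5 rose, 1 fell and 3 did not pass the threshold, with a median of 0.31. Zfand2a rose by 1.32 ± 0.08, Derl3 by 1.02 ± 0.12, Creld2 by 0.52 ± 0.06, Hnrnpa3 by 0.38 ± 0.06 and Dnajc3 by 0.31 ± 0.06, and Zfp57 fell by 0.42 ± 0.09. With ERSE-II, 12 of 16 symbols were measured, of which 6 rose and 2 fell (median 0.14). Cdc45 rose by 1.20 ± 0.08, Rcl1 by 1.00 ± 0.08 and Ggct by 0.75 ± 0.07. Smaller rises were those of Hyou1 (0.61 ± 0.06), Dnajb11 (0.27 ± 0.06) and Nucb1 (0.16 ± 0.06). Prkcz fell by 0.80 ± 0.08 and Calhm6 by 0.32 ± 0.09. No test was made of these small counts, and 27.6% of all genes and 45.6% of the bright genes rose. Derl3, Creld2, Dnajc3, Hyou1, Dnajb11 and Nucb1 were already counted in the lists above, so these counts are not independent of those.

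Cell type markers moved as well, and since RNA came from whole rings, fewer cells of a type and less RNA per cell cannot be told apart. All 7 contractile smooth muscle markers measured fell, and their summed linear signal was 3143 to 3532 on day 1, against 28566 to 29475 on day 0. Acta2 was not analysed here. Of 7 fibroblast markers 3 rose and 4 fell, with summed signals of 40439 to 41645 on day 1 and 44183 to 45655 on day 0. Of 7 macrophage markers 3 rose and 2 fell, with sums of 4197 to 4669 on day 1 and 2960 to 3153 on day 0. Of 4 endothelial markers 3 rose and 1 fell, with sums of 1358 to 1492 on day 1 and 1480 to 1644 on day 0. Of 6 adipocyte markers 5 fell and 0 rose, with sums of 313 to 330 on day 1 and 696 to 817 on day 0. The part of these shifts in the chaperone changes was not tested. Plasma cells, which are known for high chaperone and Xbp1 levels, had 6 markers measured, of which 0 rose and 1 fell, with sums of 493 to 517 on day 1 and 504 to 509 on day 0. Their defining gene Jchain stood at 2.79 to 3.17 on day 1 and at 2.64 to 3.21 on day 0, under the lower quartile of each array (4.27 to 4.39). Summed signals follow mostly the brightest markers of a list and do not measure cell numbers. The brightest plasma cell marker was Sdc1, with means of 8.54 on day 1 and 8.49 on day 0. Among the endothelial markers it was Tek, the marker that fell, with means of 9.26 on day 1 and 9.91 on day 0. Among the macrophage markers it was Cd14, one of the 3 that rose, with means of 10.74 on day 1 and 9.12 on day 0. Among the fibroblast markers it was Col1a1, one of the 4 that fell, with means of 13.39 on day 1 and 13.88 on day 0. No array stood apart, with correlations across genes of 0.996 to 0.997 within groups and 0.959 to 0.963 between them.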

How the data were processed

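Log2 expression values as deposited by the authors were used, from a table of 27342 rows by 6 arrays whose values, 1.32 to 14.16, showed the scale. Limma is named in the submitters' processing notes, and how the authors normalized and summarised the arrays is not stated there. Array medians were 5.87 to 5.95, and values were used without further scaling. Per the labels, 200 ng of total RNA was biotin-labelled.

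Rows were named from the array annotation, updated by gene ID or accession against RefSeq names of GRCr8. The 15097 rows with exactly 1 symbol gave 14324 genes, keeping the row with the highest mean. Rows with several symbols (323) or none (11922) entered only an alternative. Each of the 10 chaperone genes had 1 row.

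Day 1 was set against day 0 with lmFit and eBayes of limma 3.58.1 (R 4.3.3), two-sided, on all 6 arrays, and p-values of the 14324 genes were adjusted together (Benjamini-Hochberg, threshold 0.05). Precision is limited by the number of arrays. Errors given as ± are SEs of a log2 change, or SDs where marked. The fit was tested on simulated data. Alternatives were 2 scalings, filters on dim genes, other rows of a gene, other variance models, a minimum fold of 1.5, a block for the replicate number, and fits that left out 1 array. A fit on bright genes alone and a looser ERSE search were chosen after seeing the data.

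The 10 genes and the lists were chosen with earlier results of these data known. Of each list, the rule names up to 4 called genes by size of change and the largest called change in the minority direction. Atf4, Atp2a2, Dnajb11, Dnajc3, Eif2ak3, Hsp90aa1, Hsp90ab1, Hspa8, Hspa13, Itpr1, Kdelr1, Kdelr2, Nucb1, P4hb, Ppp1r15a, Sec61a1, Sel1l, Serpinh1, Sil1 and Syvn1 fall outside that rule in their lists and were named after their values were seen. The same held for Col1a1, Dnajc10, Dnajc25, Zfand2a, Hnrnpa3, Zfp57, Cdc45, Rcl1, Ggct, Prkcz and Calhm6. Promoter windows were scanned on both strands with Python 3.11.15 and pandas 2.3.3.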

Additional observations from a re-analysis of the deposited data

How the results depend on the processing

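Over the 6 fits that left out an array, 8 of the 10 chaperone genes rose and 0 fell each time, and the counts over all genes were 3586 to 3722 rising and 2548 to 2784 falling. With quantile normalization Canx (0.13) and Pdia3 (0.12) lost their calls and Xbp1 (-0.16) gained one, so that 1 gene of the list fell; the cause was not tested. Against a minimum change of 1.5-fold, 1 of the 10 genes, Dnajb9, still passed (limma treat adjusted p = 0.0139). Hspa5 (0.39), Hsp90b1 (0.55), Calr (0.48), Canx (0.36), Pdia3 (0.31), Pdia4 (0.57) and Pdia6 (0.42) kept their values but not their calls, by construction of that test, and over all genes 827 rose and 723 fell. In a fit on genes at least as bright as Dnajb9, chosen after seeing the data, Herpud1 (0.11) passed with an adjusted p of 0.0486, and 1654 genes rose and 908 fell among fewer genes tested. Falling genes numbered 1844 without genes under the median mean, 4483 with every row as a feature and 1932 with an unmoderated unequal-variance test. With the replicate number as a block, 3815 genes rose and 2871 fell, and no call among the 10 genes changed. Same-numbered arrays correlated at 0.01 to 0.04 in their deviations from the group means, so the numbers were not taken as pairs. Of 228 recomputed counts of the other lists, rising and falling genes pooled, 213 stayed within 1.5 times, and 11 of the other 15 came from the 1.5-fold minimum. Pooled counts do not show a turn in balance: after quantile normalization the degradation list had 5 rising and 5 falling, against 8 and 0, and the oligosaccharyltransferase list 2 and 2, against 5 and 1. The values used carry no detection call, so no limit of detection was set.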
